A study of Mus musculus with 10 samples.

Results

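The 9 genes described here encode transcription factors of the AP-1 group and its Maf relatives. They were taken by gene name as 3 Jun type genes (Jun, Junb and Jund), 3 Fos type genes (Fos, Fosb and Fosl2), the related factor Atf3, and 2 Maf type genes (Maff and Maf). Of the 9 genes, 8 had an m6A peak in at least 1 age of mouse liver, among 8641 genes with a peak, and they held 65 of 32804 peaks. By comparison, 36% of the 21951 protein-coding genes of the GENCODE M21 annotation had a peak in any list. The tissue was whole liver of wild-type (WT) C57BL/6J mice taken at day 1 and then at ages of 1 week, 2 and 4 weeks, and 8 weeks, with no treatment at any age. The labels give 1 IP sample, RNA pulled down with an antibody against m6A, and 1 Input sample, RNA before the pull-down, for each of the 5 ages, 10 samples in all. Each age has 1 list of peaks of IP over Input, and the tables for 2 and 4 weeks hold the same 8765 peaks, so 4 distinct lists remain and this one is called the 2/4-week list. Differences between lists therefore have no replicate check. The files do not state which age the shared list describes, and its number of genes is much nearer to the study's count for the earlier of these ages. Its number of peaks is below the study's counts for both ages and nearer to that of the later one. The other lists also hold fewer peaks than the study counted.

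AP-1 factors are basic leucine zipper (bZIP) proteins that bind DNA as dimers. Jun proteins pair with themselves, with Fos proteins or with Atf factors, whereas Fos proteins need a Jun type partner, and Maf proteins bind longer sites that contain the AP-1 core. Many of these genes are immediate early genes, whose short-lived mRNAs appear within minutes of a growth or stress signal, and in mice Jun is needed for liver development and for hepatocyte growth after partial hepatectomy. m6A, a methyl mark set on adenosines of mRNA by the Mettl3 and Mettl14 enzyme pair, lies mostly at the core GGAC of a longer consensus, often near the stop codon, and reader proteins that bind it can change the stability and translation of the mRNA.

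The 3 Jun type genes had a peak over the stop codon in every list, and in each gene a stretch around the stop codon was covered at every age. The sequences below are the GGAC cores, in capitals with 13 bases on each side, within the stop-codon stretch covered in every list, read 5′ to 3′ from the GENCODE M21 transcripts on GRCm38 (mm10). Positions count mRNA bases from the first base of the stop codon as 0, negative upstream. In Jun, a single-exon gene, the stretch spanned chr4:95049958-95050494 on the minus strand, from -225 to 311, and its 5 GGAC cores all lay in the 3′ UTR.
Jun at 128: gggtacacaagatGGACtgggttgcgacct
Jun at 175: gctggagtgggaaGGACgtggcgcgcctgg
Jun at 241: cggcagactttgcGGACgggctgtgcccgc
Jun at 274: cgaccagaacgatGGACttttcgttaacat
Jun at 307: ccaagaactgcatGGACctaacattcgatc
In Junb, also of 1 exon, it spanned chr8:84977206-84977503 on the minus strand, from -106 to 191, with 1 core just before the stop codon and 2 after it.
Junb at -12: gctaggggtcaagGGACacgccttctgaga
Junb at 23: ccttgccccatacGGACacccccagccttg
Junb at 124: cagctcacacactGGACtccggcccgcccg
In Jund, again of 1 exon, it spanned chr8:70699663-70700437 on the plus strand, from -418 to 356, with 3 cores in the coding sequence and 4 in the first 100 bases after the stop codon, which are shown here.
Jund at 26: ggggcgcatgcgcGGACtagctgcggtggg
Jund at 53: gggggggcgccccGGACtctttcgagactc
Jund at 79: actcggtgcccccGGACtcgacaagccgga
Jund at 93: gactcgacaagccGGACcccccttaactct
All 4 of these Jund cores are followed by T or C and so complete the wider DRACH consensus (A, G or T, then A or G, then AC, then A, C or T), as do 3 of the 5 Jun cores and all 3 Junb cores.

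The coding parts of these stretches differed between the 3 genes. That of Jun, 225 bases at chr4:95050270-95050494, holds the codons of a sequence signature of the DNA-binding basic region and no GGAC.
Jun coding part: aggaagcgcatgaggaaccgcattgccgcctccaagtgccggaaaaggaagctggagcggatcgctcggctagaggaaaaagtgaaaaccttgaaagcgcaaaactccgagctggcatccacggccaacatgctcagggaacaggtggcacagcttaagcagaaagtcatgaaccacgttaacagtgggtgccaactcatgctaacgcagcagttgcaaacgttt
The first 300 bases of the Jund stretch, at chr8:70699663-70699962, hold the codons of this signature in Jund and the 3 coding GGAC cores, all upstream of those codons. Of these cores only that at -253 completes DRACH, and those at -322 and -301 are followed by G.
Jund coding part: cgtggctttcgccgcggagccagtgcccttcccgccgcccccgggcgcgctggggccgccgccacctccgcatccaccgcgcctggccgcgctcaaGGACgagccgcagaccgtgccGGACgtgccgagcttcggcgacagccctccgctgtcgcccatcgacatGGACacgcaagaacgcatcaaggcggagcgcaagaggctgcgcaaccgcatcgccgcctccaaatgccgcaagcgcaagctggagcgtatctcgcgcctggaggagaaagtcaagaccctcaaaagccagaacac
The sequence signature of the basic region begins 210 bases before the stop codon in each of the 3 genes, yet no Junb peak of any list reached it. Junb instead had a separate coding stretch covered in every list, 179 bases at chr8:84977888-84978066, with 2 GGAC cores. Both are followed by G and so do not complete DRACH.
Junb upstream coding part: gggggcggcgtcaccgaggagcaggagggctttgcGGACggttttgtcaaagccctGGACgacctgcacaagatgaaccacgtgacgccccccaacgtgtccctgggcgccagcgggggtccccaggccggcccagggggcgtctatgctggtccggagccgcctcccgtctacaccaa

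Peak presence differed by type. The Jun type genes were called in all 4 lists, 3 of 3 genes each time. Of the 3 Fos type genes, 1 was called in each list, Fosl2 at day 1, 1 week and 2/4 weeks and Fosb at 8 weeks, and Fos itself was called in none. Atf3, a stress-induced partner of Jun proteins, was called only in the 1-week list. Maf was called in every list, and Maff, a small Maf protein without an activation domain, at day 1 and 8 weeks. In all, 6, 6, 5 and 6 of the 9 members were called at day 1, 1 week, 2/4 weeks and 8 weeks. Of the 8641 genes that had a peak in some list, 8 of them members, the shares called at these ages were 73.3%, 64%, 63.9% and 39.9%. The 8-week list held 6 members although it held the smallest share of all genes. Fosb was called there with a false discovery rate (FDR) of 0.752, and 5 members were left at an FDR of at most 0.05. Of all 8-week peaks 14.1% had an FDR above 0.05, against 1.3%, 2.7% and 3.6% at day 1, 1 week and 2/4 weeks. Jun, Junb, Jund and Maf, 4 of those 8 members, were called in every list, as were 23.8% of the 8641 genes. Fos, without any peak, is among the 9 members but in neither the 8 nor the 8641. Beside the shares of all genes, the counts of 6, 6, 5 and 6 are thus of 8 members. A gene without a peak was only not called there. No expression values or read counts were used, so a lack of mRNA and a lack of m6A cannot be told apart, and neither can fewer cells of a type and less RNA per cell.

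**Figure D1:**
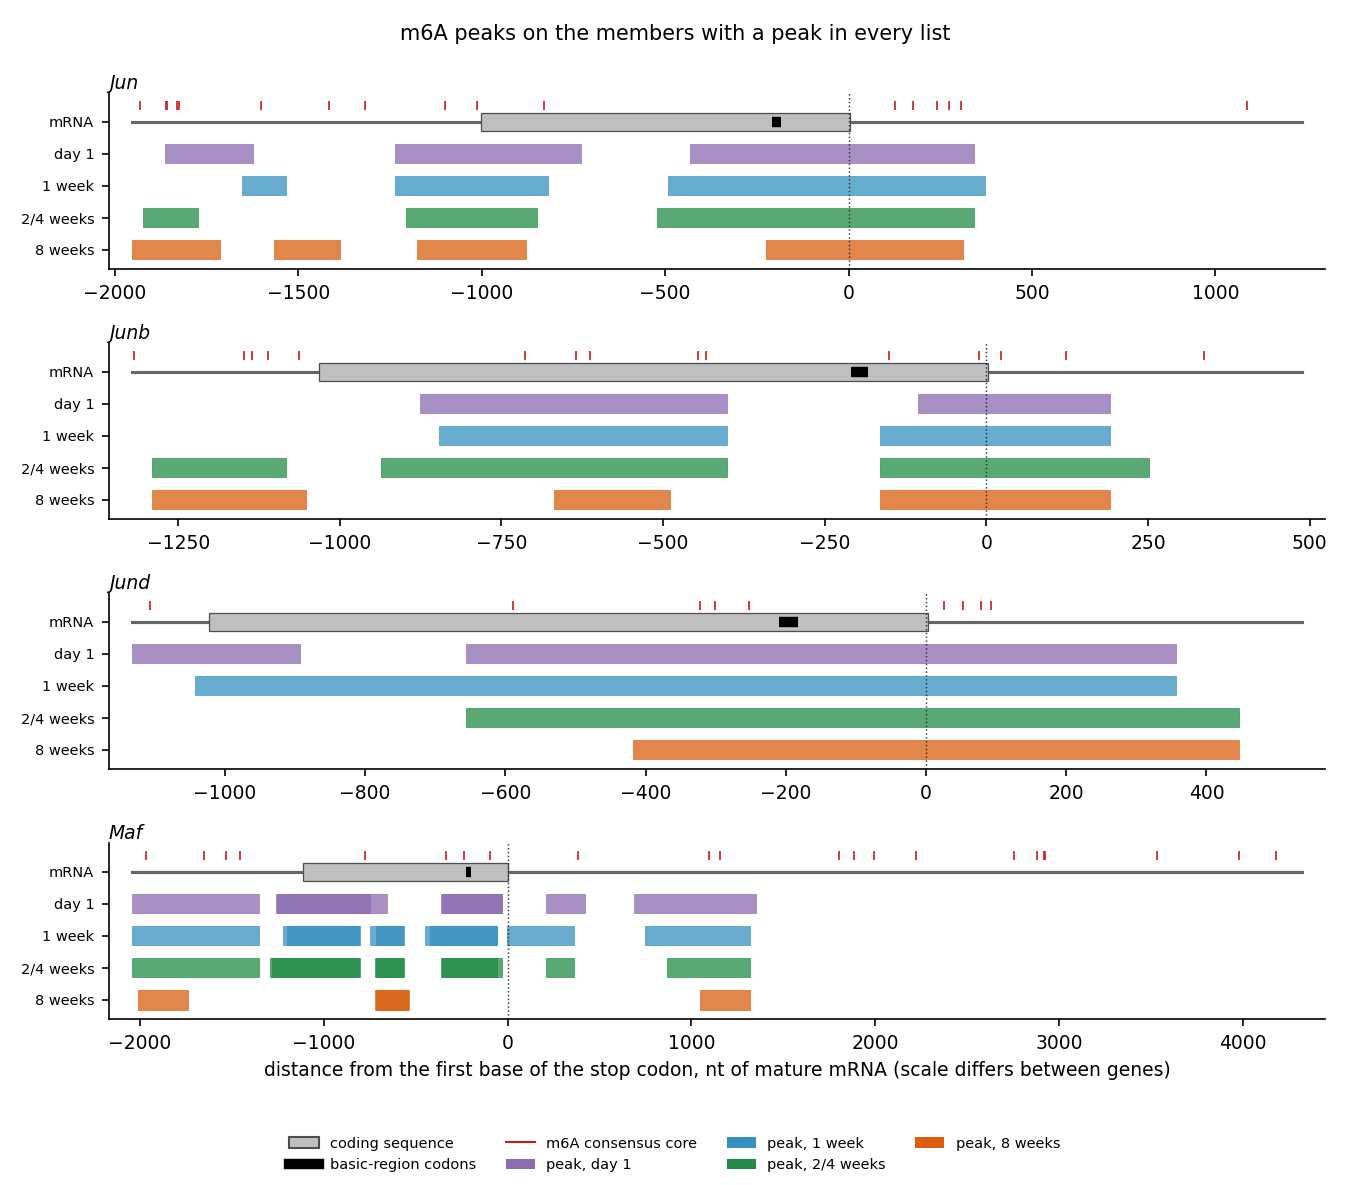
Peaks (coloured bars, 1 row per list from day 1 to 8 weeks) on the mRNAs of Jun, Junb, Jund and Maf, with the coding sequence in grey, the codons of the basic-region signature in black and the GGAC cores as red ticks. The x axis is the distance from the first base of the stop codon in nt of mature mRNA, and darker bars are overlapping rows. The Jun, Junb and Jund peaks cross 0 in all 4 lists, whereas on Maf a peak crosses 0 only at 1 week.

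Jun, the founding AP-1 subunit, had 3, 3, 3 and 4 peaks at day 1, 1 week, 2/4 weeks and 8 weeks. Its stop-codon peak was the highest of the gene in every list, with a fold enrichment (IP over Input) of 260, 497, 444 and 790. Folds have no scale that is shared between lists, so each was also placed among all peaks of its own list, where these stood at percentiles 97.9, 99.1, 99.3 and 99.9. In the 8-week list only 5 of 4808 peaks had a higher fold. The 5′ edge of this peak lay at -433, -493, -523 and -225 and the 3′ edge at 341, 371, 341 and 311, so the 8-week peak was shorter on the coding side while its 3′ edge moved little. Because the deposited class follows the middle of a peak (98.9% of 27186 placed peaks with a UTR, coding or stop-codon class), this peak is listed as coding in the first 3 lists and as 3′ UTR at 8 weeks although it covers the stop codon in all of them. The second Jun peak crossed the start of the coding sequence in every list, with folds of 39.7, 48.7, 303 and 39.5, and 299 bases at chr4:95051149-95051447 were common to all lists. This stretch held 2 GGAC cores, both in the 5′ UTR. Further upstream, the 5′ UTR held 1 peak in each of the first 3 lists, with folds of 15.4, 8.36 and 9.95, and 2 peaks at 8 weeks, with folds of 32.4 and 66.3. Their edges differed, and no base upstream was covered in every list. The lower of the 8-week pair overlapped the day 1 and 2/4-week peaks. The higher overlapped the 1-week peak and no other, and the day 1 peak overlapped the 1-week and 2/4-week peaks.

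Junb, which can act against Jun at some target genes, had 2, 2, 3 and 3 peaks. Its stop-codon peak had folds of 133, 42.5, 205 and 138, and its coding peak had folds of 49, 345, 207 and 52.2, so the coding peak was higher at 1 week and, by a margin of 207 to 205, at 2/4 weeks. The highest Junb fold stood at percentiles 92.3, 97.9, 96.3 and 94.5 of its list. The 3′ edge of the coding peak was at the same base, position -402, in the first 3 lists and at -491 at 8 weeks. The 3′ edge of the stop-codon peak was at 191 in 3 lists and at 250 at 2/4 weeks. A 5′ UTR peak was called only in the 2 later lists, with folds of 18.7 at 2/4 weeks and 30.1 at 8 weeks. Such shared edges go with stepped widths, since 91.3% to 96.6% of all peak widths per list lay within 2 bases of a multiple of 30.

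Jund, the Jun gene that is also made in resting cells, carried 1 wide peak over the stop codon in every list, which began in the coding sequence except at 1 week, where it took in the whole coding sequence and 20 bases of the 5′ UTR. Its folds were 214, 54.2, 290 and 128, at percentiles 96.7, 76.7, 98.1 and 93.7, and its widths on the mRNA were 1013, 1400, 1103 and 865 bases. The widest of these, at 1 week, also had the lowest fold. A weak second peak was listed separately at the 5′ end at day 1, with a fold of 5.6, in a region that the wide 1-week peak partly covered. The gene span of an annotated antisense RNA, Gm11175, with introns counted, overlaps 55.1% of the Jund mRNA. Gm11175 had 6 peaks of its own in the 4 lists, with highest folds of 36.7, 13.1, 26.9 and 29.1. Those peaks lay almost wholly inside the Jund peak, in the same bases. The library kit named in the labels does not mark strand, so reads of the 2 genes cannot be told apart, and the Jund values may hold both. By gene span, again with introns counted, Junos overlaps 21.6% of Jun and Gm15655 overlaps 33.9% of Maf on the opposite strand. Neither had a peak over them.

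The Jun type thus differed from the other members in having the stop codon covered in every list. In each list 3 of 3 Jun type genes had a peak over the stop codon. Among the other members this was seen for Maf at 1 week alone, where a weak peak (fold 5.82, position -1 to 359) took in the stop codon. The main Fosl2 peak came close, since it began at position 10 in 3 lists, a gap below the 30-base step of peak widths. Peaks covered 39.4% to 83.9% of the Jun type mRNAs, and the part of this wide coverage was not tested. Over all coding genes with a placed peak, the share with one over the stop codon was 38.7%, 33%, 31.4% and 24.6% at day 1, 1 week, 2/4 weeks and 8 weeks. For single-exon genes the shares were 56.9%, 46.4%, 46.9% and 32.8%. Of coding genes with a placed peak in every list, 17.4% had the stop codon covered in every list, and among the 97 single-exon genes of that kind 28.9% had. The 3 Jun genes are single-exon genes too, and as a class such genes were called in every list more often (39.4% of 249 genes, against 24.6% of 7610 genes with 2 or more exons).

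Maf, the large Maf protein that governs genes of macrophages, lens and T cells, had the most peaks of the group, with 7, 9, 9 and 4 rows. Several rows repeat one stretch with edges a few bases apart, and after merging they made up 5, 6, 6 and 3 stretches. Counted as rows before merging, 24 of 6336 genes had more than Maf at day 1. Maf is placed here on Maf-202, its longest coding transcript, of 1 exon and 6360 nt. Its highest fold was 107, 576, 66.2 and 67.7, at percentiles 89.7, 99.3, 83.6 and 85.5. The stretch of the highest peak was not fixed: it lay in the 3′ UTR at day 1 and 1 week, at the start of the coding sequence at 2/4 weeks and in the 5′ UTR at 8 weeks.

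A set of 3 stretches of Maf was covered in every list. The first lay in the 5′ UTR, 271 bases at chr8:115707494-115707764, where the peak had folds of 71.5, 49.4, 62.6 and 67.7. The second was 65 bases of coding sequence without a GGAC core, and the third was 270 bases of 3′ UTR at chr8:115704435-115704704, from position 1049. In this last stretch the peak had folds of 107, 576, 52.4 and 36.2, and its 3′ edge lay at 1318 in the last 3 lists and at 1348 at day 1. The GGAC cores of the 5′ UTR and 3′ UTR stretches are shown because no Maf stretch covered in every list lay at the stop codon.
Maf at -1966: ttgccttggcccaGGACttgcaattttgct
Maf at 1096: aagcctgcatgctGGACatgtatggtataa
Maf at 1155: ttggcttggaaatGGACttttgaagactta
Each of these 3 cores completes DRACH. No GGAC lies within 350 bases after the Maf stop codon, whereas Jun has 5, Junb 3 and Jund 4 there.

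**Figure D2:**
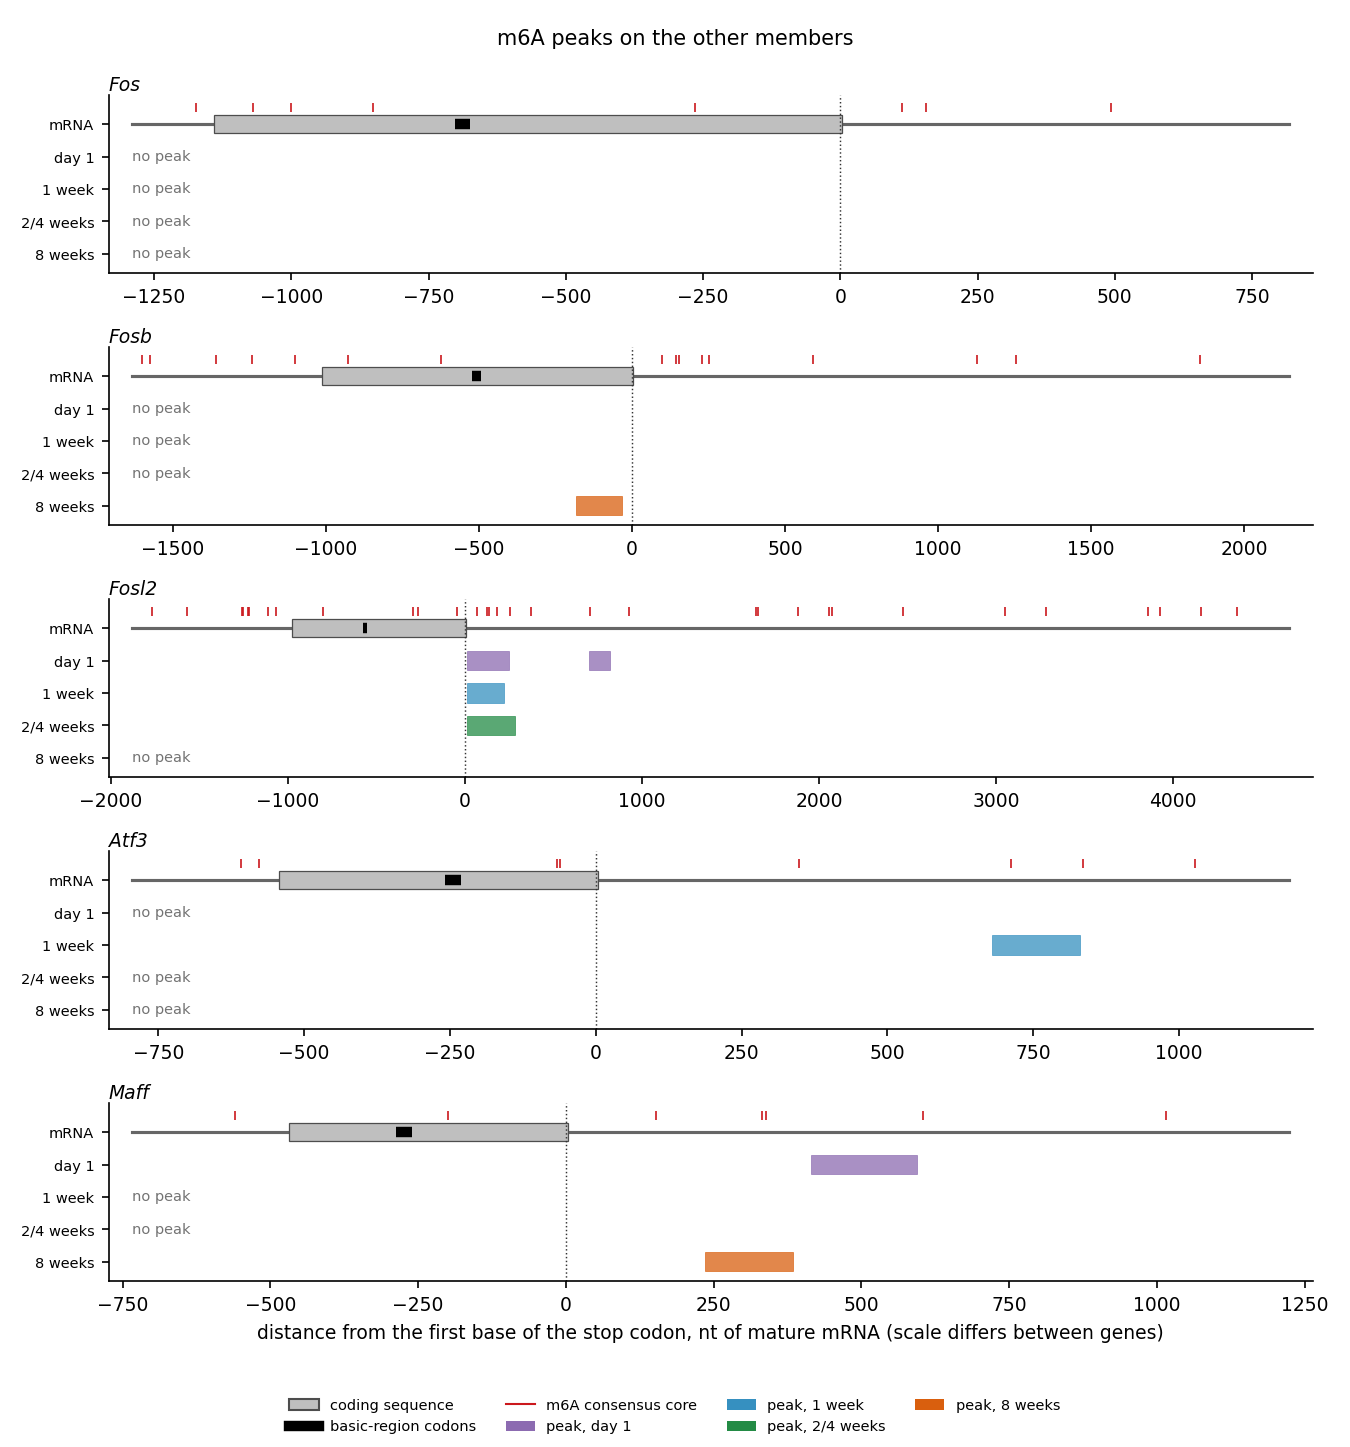
Peaks on the mRNAs of Fos, Fosb, Fosl2, Atf3 and Maff, drawn as for the Jun type genes, with distance from the stop codon in nt on the x axis and 1 row per list. Fosl2 has a peak that starts at position 10 in the first 3 lists, and the other genes have at most 1 peak in a list.

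Among the Fos type genes, Fosl2 (the gene of Fra-2) had a peak just after the stop codon in 3 lists. The peak began at the same base each time, position 10, and ended at 250, 220 and 280 at day 1, 1 week and 2/4 weeks. Its folds were 63.8, 31.3 and 26.3, at percentiles 81.6, 63.2 and 62.7, lower within its list than the best peak of Jun, Junb or Jund in each of these lists. The 211 bases common to the 3 lists, chr5:32153197-32153407, hold 4 GGAC cores, shown because this is the one Fos type stretch seen in more than 1 list.
Fosl2 at 65: acacccttcccagGGACcagcacctttaag
Fosl2 at 123: cccctggctctggGGACccacccggtggga
Fosl2 at 137: gacccacccggtgGGACttagtggtgagac
Fosl2 at 179: cttagaagccctgGGACacgccctccctca
All 4 complete DRACH. A second Fosl2 peak at day 1, with a fold of 7.01, had an FDR of 0.0617. No Fosl2 peak was called at 8 weeks.

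The remaining peaks of the group were single and low in their lists. Fosb, at 8 weeks, had 1 peak in its last coding exon, at chr7:19304876-19305026, with a fold of 9.87 and an FDR of 0.752, so it would not pass a cut-off of 0.05, and it held neither GGAC nor DRACH. Atf3 had a peak of 150 bases in the 3′ UTR at 1 week, at chr1:191170655-191170804, with a fold of 12.4 and an FDR of 0.00229. The 2 Maff peaks, both in the 3′ UTR, did not overlap. The 8-week peak, at chr15:79358088-79358237, ran from position 235 to 384 with a fold of 15.5, and the day 1 peak, at chr15:79358267-79358446, ran from 414 to 593 with a fold of 14. The Fosb, Atf3, 8-week Maff and day 1 Maff peaks stood at percentiles 26.5, 31.6, 43.3 and 39.1 of their lists, below the median. Fos, with 8 GGAC cores in its mRNA of 2108 nt, was the only member with no peak. The 5 genes Fos, Fosb, Fosl2, Atf3 and Maff have 3 or 4 exons, and all 8 peaks of these genes lay in the last exon, against 63.5% of all peaks of multi-exon genes. Their last exons make up 68.9% to 84.6% of the mRNA, against a median of 53% over multi-exon genes with a peak.

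**Figure D3:**
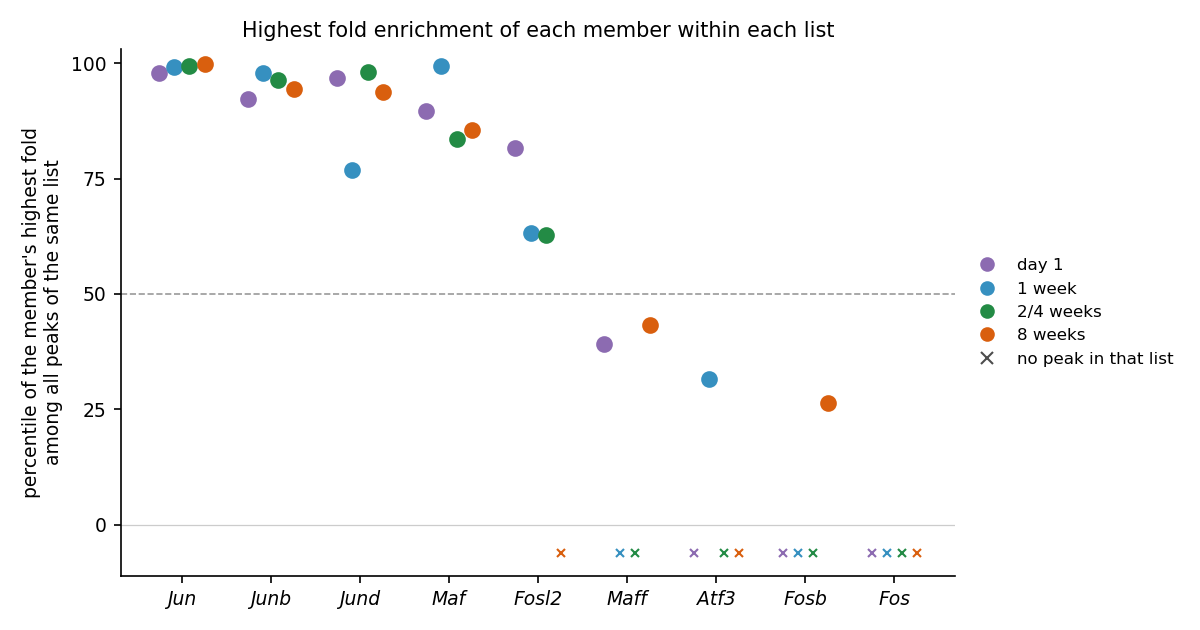
Percentile of each member's highest fold among all peaks of the same list (y axis), by gene (x axis) and list (colour), with crosses where no peak was called and a dashed line at the median of the list. Jun sits at 97.9 or above in all 4 lists, and Maff, Atf3 and Fosb sit under 50 wherever they were called.

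In the coding sequence of the 4 members called in every list, fewer bases were covered by peaks at 8 weeks than in any other list. Peaks covered 708, 678, 678 and 351 coding bases of Jun, 584, 614, 703 and 347 of Junb, 789, 1026, 659 and 421 of Jund, and 786, 883, 791 and 184 of Maf at day 1, 1 week, 2/4 weeks and 8 weeks. The 8-week value was the lowest of the 4 in each of these genes. In the 3′ UTR, covered bases numbered 309 at 8 weeks and 339 at day 1 in Jun, 189 at both ages in Junb, 444 at 8 weeks and 354 at day 1 in Jund, and 270 at 8 weeks and 871 at day 1 in Maf. In the 3′ UTR, then, only Maf among these 4 genes had far fewer covered bases at 8 weeks than at day 1. Fosl2, outside this set, had 362 at day 1 and no peak at 8 weeks. A 3′ UTR ratio over all genes was not computed. Peaks of all genes were shorter in the 8-week list too, with a median width of 181 bases, against 270, 241 and 240 in the day 1, 1-week and 2/4-week lists. The 8-week coding coverage divided by that of day 1 was 0.496 in Jun, 0.594 in Junb, 0.534 in Jund and 0.234 in Maf, beside a median of 0.356 over 1875 genes. Against 1 week the ratio was 0.518 in Jun, 0.565 in Junb, 0.41 in Jund and 0.208 in Maf, beside a median of 0.459, and against 2/4 weeks it was 0.518, 0.494, 0.639 and 0.233 for Jun, Junb, Jund and Maf, beside 0.481. Maf lay below the median against each of the 3 lists and Jun and Junb above it, while Jund lay below it against 1 week. Over the whole mRNA the ratio to day 1 was 0.824, 1.00, 0.691 and 0.29 for Jun, Junb, Jund and Maf, beside a median of 0.477. The part of depth in these widths was not tested.

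**Figure D4:**
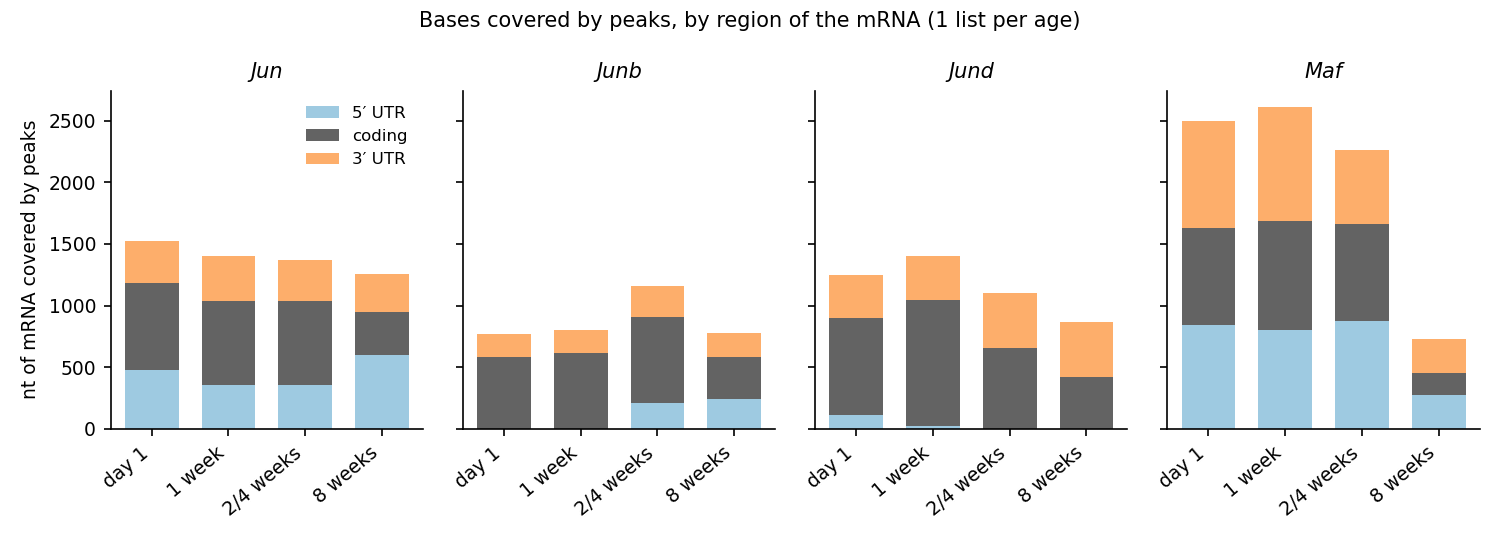
Bases of mRNA covered by peaks (y axis, nt) in each list (x axis), split into 5′ UTR, coding sequence and 3′ UTR, for the 4 members called in every list. The coding part is smallest at 8 weeks in all 4 genes, down to 184 nt in Maf.

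GGAC was present in 51 of the 65 member peaks (78.5%, exact 95% binomial interval 66.5% to 87.7%, counting error only). Of 30379 placed peaks of all genes 74.8% held it, which lies within the interval. The member peaks are not independent, since the same stretches recur between lists and some Maf rows overlap, so the interval is too narrow. With overlapping peaks of 1 gene merged, 47 of 56 member stretches (83.9%) held GGAC, without a merged share of all genes beside it. GGAC was present in all 28 peaks of the Jun type. These were 120 to 1400 bases wide, against median widths of 181 to 270 bases in the lists, and the part of width was not tested. Of the 14 member peaks without GGAC, 12 were on Maf. DRACH was absent from 7 member peaks, the Fosb peak and 6 Maf rows with folds of 6.44 to 14.1, all on the same coding stretch of Maf. It was thus present in 89.2% of member peaks, against 98.5% of all placed peaks. GGAC is dense in Junb, with 8.29 per kb, against 3.46 in Maf and a median of 4.19 over the longest transcripts of coding genes with a peak. Of the 17 GGAC cores of Jun, 12, 9, 11 and 13 lay under a peak at day 1, 1 week, 2/4 weeks and 8 weeks. These were 70.6%, 52.9%, 64.7% and 76.5% of its cores, while peaks covered 47.8%, 44%, 43.1% and 39.4% of its bases. Over all genes with placed peaks, 18.8%, 16.3%, 16% and 10.2% of GGAC cores were covered in the same lists. The covered shares of their bases were 13.8%, 11.5%, 11.4% and 6.96%.

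Of 11 relatives of AP-1 and Maf, 6 had a peak in any list and 1, Atf7, in every list. Atf7, an Atf factor that pairs with Jun, had a stop-codon peak in every list with folds of 40.6, 15.7, 3.22 and 16. Jdp2, a repressor that pairs with Jun proteins, had a stop-codon peak at day 1, 1 week and 2/4 weeks with folds of 120, 155 and 55.6 and none at 8 weeks. Mafg, a small Maf protein, had a peak at the end of the coding sequence in the same 3 lists, with folds of 44.8, 59.6 and 13.5. Another 3 relatives were called in 1 list each: Atf2 at 1 week, Mafk at day 1 and Nrl at 8 weeks. Fosl1, Batf, Batf2, Batf3 and Mafa had no peak.

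In the signalling around AP-1, 11 of 14 kinases and phosphatases had a peak in any list. Those called in every list were Mapk14 (p38), the kinases Map2k2 and Map2k7, and the MAP kinase phosphatases Dusp1 and Dusp6. Map2k1 and Map3k5 were called in 1 list each, and Mapk8, Mapk10 and Mapk3 in none. Of 3 ubiquitin ligases of Jun, Fbxw7 and Itch were called in 3 lists each and Cop1 in none. Of 17 other immediate early genes and their activators, 13 had a peak and 7 had one in every list, Egr1, Ier2, Ier5, Zfp36, Btg2, Csrnp1 and Srf, while Socs3 was called at 8 weeks only. A stop-codon peak in every list, as in the Jun genes, was also seen in Egr1, Srf and Dusp1 and in the single-exon hepatocyte gene Cebpa, whereas the single-exon genes Ier2 and Ier5 had one in the first 3 lists and not at 8 weeks. All 6 genes of the list of small Maf partners had a peak, and Nfe2l1, Nfe2l2 (the gene of Nrf2), Bach1 and Bach2 had one in every list. The members and these lists can be read against 36% of coding genes with any peak. The 23.8% called in every list is a share of genes with a peak, so whole lists are not its match. Of the list genes with a peak, those in every list were 1 of 6 relatives and 5 of 11 kinases and phosphatases. They were 0 of 2 ubiquitin ligases, 7 of 13 immediate early genes and activators, and 4 of 6 in the list of small Maf partners.

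The liver holds several cell types, and the lists give no level per cell type. Of 8 hepatocyte markers 5 had a peak in any list, as did 3 of 4 macrophage, 2 of 4 endothelial and 2 of 3 stellate cell markers. Alb and Ttr, defining hepatocyte genes, had no peak, so a missing peak does not mark a missing cell type. Of 4 erythroid markers, 4, 3, 0 and 0 were called at day 1, 1 week, 2/4 weeks and 8 weeks. In the same lists 4, 5, 3 and 5 hepatocyte and 2, 3, 2 and 2 macrophage markers were called. The endothelial and stellate sets each had 2 in every list. Of all genes with a peak in some list, 73.3%, 64%, 63.9% and 39.9% were called. The part of cell make-up in the peaks of the members was not tested.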

How the data were processed

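Liver RNA of WT mice was fragmented and profiled by m6A-RIP sequencing. The study's methods describe total RNA with later removal of rRNA, whereas the labels describe purified mRNA. According to the study's methods, 2 animals were used per age, reads were aligned to mm10 with HISAT2 and peaks were called with exomePeak, with the longest isoform kept per gene. HOMER is also named. How the animals entered the single list of an age is not stated in these sources. Each deposited row holds a peak's span and exon blocks, gene and class. The authors deposited a p-value for each peak. The log10 values they deposited for p and FDR were handled as a score, since they run past the usual log range. The fold enrichment they deposited is the ratio of IP to Input. Read counts and depth are unknown. The tables of 2 and 4 weeks agree in 17 of 18 columns and differ in 12 gene names, so they were used once. A log10 that a spreadsheet had replaced by an error was read as minus infinity.

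Peaks were placed, by exon blocks, on the longest protein-coding transcript of each gene in GENCODE M21 (GRCm38, the same assembly as mm10). Placement was tested on simulated peaks. Of the basic region only a short sequence signature was located, in the translation, and its full extent was not marked. Motifs were searched on the mRNA strand only. Python 3.11.15, pandas 2.3.3, SciPy 1.17.1 and Biopython 1.88 were used. No test between ages was possible with 1 list per age. The named genes are all members, and of the other lists those with a peak in every list or in 1 list, and every relative with a peak. A few genes were removed from these lists before counting and are not reported here. The members and lists were chosen with earlier results of these data known. Alternatives were an FDR cut-off, a fold of at least 5, lists of equal length, other transcripts, other overlaps and other motifs. An FDR of at most 0.05, merged rows and the best peak by fold were added after seeing the data.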

Additional observations from a re-analysis of the deposited data

How the results depend on the processing

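Of 71 values under alternatives, 61 were within the limits set, which were 1.5 times the main value for a count and the exact 95% interval for a share, and 10 were outside. The limit for counts is wide: at 8 weeks 4 in place of 6 members had a peak with a log10 FDR of at most -3, and at day 1 12 in place of 17 member peaks were left in lists of equal length. The count of members with a stretch covered in every list was 4, and 2 (Jun and Jund) when only the highest peak by fold of each list was used, a setting added after seeing the data. It was 3 with a 50% reciprocal overlap (Jun, Junb and Jund) and 3 with the peak of lowest p (Jun, Jund and Maf). The share of member peaks with a motif, 78.5% for GGAC, was 89.2% for DRACH, against 98.5% of all placed peaks, and 53.8% for GGAC in the middle 100 bases of each peak, against 46.7%. The share of all genes called was 74.3%, 65.5%, 65.4% and 41% at day 1, 1 week, 2/4 weeks and 8 weeks among protein-coding genes only, and with a log10 FDR of at most -3 it was 74.6% at day 1, 60.7% at 2/4 weeks and 37.9% at 8 weeks. With that cut-off Atf3 at 1 week and Fosb and Maff at 8 weeks were lost, and with an FDR of at most 0.05 Fosb was lost. With lists of 4808 peaks each, Maff at day 1 and Atf3 were lost. With the transcript of longest coding sequence the Maf peak at 1 week no longer covered the stop codon. Jun, Junb, Jund and Maf kept a peak in every list under each of these cut-offs. No paired analysis was possible because each group holds 1 sample and no result comes from a test. Depth is unknown, so what it limits was not tested.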
